A study of Mus musculus with 10 samples.

Results

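Many mouse genes carry more than 1 annotated transcript end, and the count table of this study gives the reads of the last 500 bp or less of the 3′UTR of each transcript as a segment of its own. The segments described here lie upstream of the outermost one, far from it. For each gene the distal segment was the one with the largest end coordinate on the plus strand or the smallest start on the minus strand. A member is any other segment of the gene with a gap of 1000 bp or more to the distal segment, with 50 or more counts over the 10 libraries, in a gene whose distal segment also reached 50. Members were thus chosen by position and by counts summed over both groups, and the threshold uses the same counts as the comparison. Of 52423 segments in the table, 12296 lay at such a distance. Of these, 4561 had no count, 3701 had 1 to 49 counts and 4034 had 50 or more. After the minimum on the distal segment, 1828 members in 1334 genes remained, with 1 member in 966 genes, 2 in 270 and 3 or more in 98.

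Gastrocnemius (GAS), a mixed hindlimb muscle, was sequenced in male C57BL/6J mice of the WT genotype made obese on the high fat diet D12492i (DIO mice), which was started at 9 weeks of age and given for 9 weeks before treatment. The series entry puts the mice at 30 weeks of age when the muscle was taken, which is less than the sum of these times and the treatment. The ASO group, labelled RES-010, received the antisense oligonucleotide against miR-22 subcutaneously at 10 mg/kg once a week for 14 weeks and has 5 libraries. The CTRL group, labelled VHL (vehicle), received saline in the same volume and has 5 libraries. Both groups share the diet, and the control is saline rather than an oligonucleotide of another sequence, so the effect of the miR-22 sequence and that of giving any oligonucleotide cannot be told apart. The labels number the libraries within a group, and p-values measure the spread between these libraries.

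A pre-mRNA is cut downstream of a polyadenylation signal, most often the hexamer AATAAA or its variant ATTAAA, and a poly(A) tail is added at the cut. A gene with several signals can end its mRNA early or late, which shortens or lengthens the 3′UTR and with it the room for binding sites of microRNAs and RNA-binding proteins. Signals inside introns can also end a transcript before the last coding exon. In these libraries, made from polyadenylated RNA, an upstream segment can be read from any transcript that covers it. A segment inside the last exon can thus be read from transcripts that end there and from longer ones that run to the distal end. The counting options given name no setting for read pairs that lie on several overlapping segments, so such pairs may be left uncounted. Of the 1828 members, 1468 share no base with another segment, and 341 have under 200 bases of their own. The part of such pairs in the counts was not tested.

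The last bases of each segment were searched for a polyadenylation signal. The hexamer AATAAA or ATTAAA, searched on the transcript strand in the last 50 bases, was found in 60.5% of all segments, in 84.8% of the distal segments of the member genes (1131 of 1334) and in 25.2% of the members (461 of 1828). The segments follow an older annotation, and 63.9% of all segments, 74.8% of the members and 58.8% of the distal segments end where the same transcript ends in GENCODE M39, so for the others the window may not lie at the end in the newer annotation. The last 30 bases are given here for genes on which the results turn, read 5′ to 3′ from GRCm39 with the hexamer in capitals. *Deptor*, *Gsk3b* and *Susd6* are among the named members with a lower ratio, and *Hipk3* and *Opa1* have an upstream segment with a signal of its own. In the members of *Med25* and *Stmp1* shown here the ratio went up.
Deptor upstream, chr15:55117569-55117598, plus strand: gtttagccttcgctccggtgtgctaagacc
Deptor distal, chr15:55122638-55122667, plus strand: atgaAATAAAtgttacatttttaaaaatta
Gsk3b upstream, chr16:38061437-38061466, plus strand: actgtcacttgtacaatgtgtacttatcct
Gsk3b distal, chr16:38066417-38066446, plus strand: ttcAATAAAgacaaatttatattggactca
Susd6 upstream, chr12:80924618-80924647, plus strand: cttcctaatactcaagttctcacttcctgc
Susd6 distal, chr12:80927580-80927609, plus strand: aataatAATAAAaattcttatgaaggcaga
Hipk3 upstream, chr2:104260126-104260155, minus strand: ttgattaaaAATAAAaacatggtatttaat
Hipk3 distal, chr2:104256826-104256855, minus strand: tttgaATTAAAatatatatattgcggcaaa
Opa1 upstream, chr16:29470665-29470694, plus strand: tccgtgcaaAATAAAgtcacagggtaaaag
Med25 upstream, chr7:44528815-44528844, minus strand: ctgaacccaacacccAATAAAgttcctttt
Stmp1 upstream, chr6:35238543-35238572, plus strand: ttaaagtcATTAAAgtcagtatcttcaagc
Stmp1 distal, chr6:35240402-35240431, plus strand: tccAATAAAtagtagctacccattggaaaa
The upstream ends of *Deptor*, *Gsk3b* and *Susd6* hold neither hexamer in these letters, and a missing match says only that these letters are not in the window. In *Opa1* and *Med25* the upstream end holds AATAAA 15 and 9 bases before the end of the segment. Their distal ends, not shown, hold neither hexamer in the last 50 bases, and that of *Opa1* ends in a run of A in the genome.

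The upstream-over-distal ratio of a library is the count on the upstream segment over the count on the distal segment of the same gene and needs no scaling between libraries. On the log2 scale 0.5 was added to each count. The median log2 ratio over all members was -0.81, -0.88, -0.30, -0.17 and 0.14 in CTRL libraries 1 to 5 and -1.70, -1.74, -2.21, -1.94 and -1.98 in ASO libraries 1 to 5. The groups did not overlap, and CTRL libraries 1 and 2 lay closest to the ASO libraries. Members took 7.92% to 11.2% of the counts of a CTRL library and 4.38% to 5.61% of those of an ASO library. Library totals were between 1606909 and 2116720 counts in CTRL and between 2239186 and 2632560 in ASO, so every ASO library was deeper than every CTRL library. With all libraries drawn down to the smallest total, 1116 members had a lower ratio and 28 a higher one of 1664 that kept the minimum. The summed level of 12 muscle fiber markers was also apart between the groups, at 43684 to 81168 CPM (counts scaled by library size) in CTRL and 91616 to 138588 in ASO, with *Tnnt3*, *Pygm* and *Ryr1* at 0 in the table. The summed levels of 10 endothelial, 8 fibroblast, 8 Schwann cell, 6 blood, 10 adipocyte and 12 macrophage markers overlapped between the groups, and those of 7 satellite cell markers had ranges of 170 to 242 CPM in CTRL and 238 to 465 CPM in ASO. Listed at 0 were *Adgre1*, *Cd163*, *Ctss* and *Fcgr3* of macrophages, *Plin4* of adipocytes, *Dcn* of fibroblasts, *Alas2* of red blood cells and *Calcr* of satellite cells. The part of fiber markers in the ratios was not tested. In whole muscle, fewer cells of a type and less RNA per cell cannot be told apart.

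**Figure D1:**
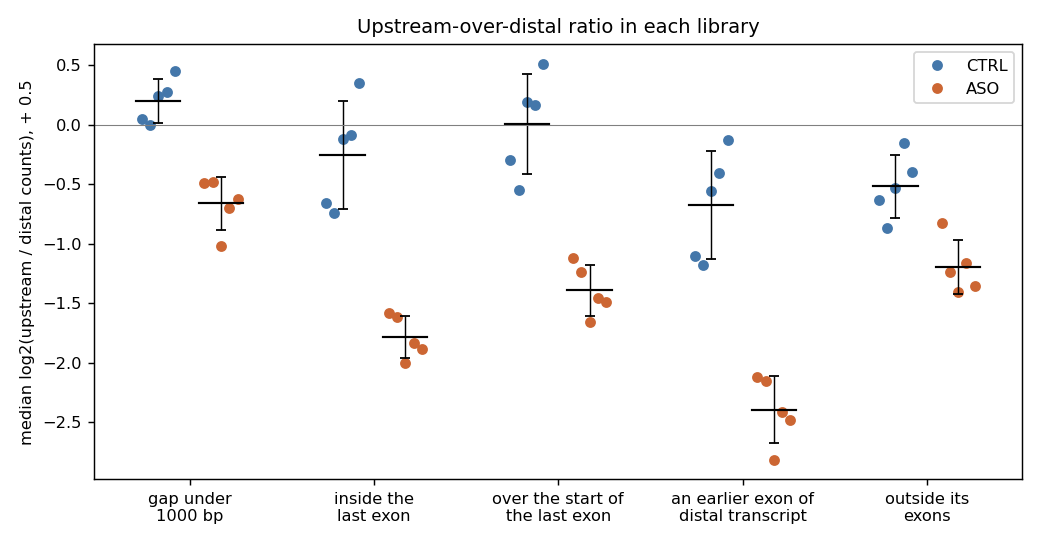
Median log2 upstream-over-distal ratio (y axis) in each of the 10 libraries, by the place of the upstream segment (x axis), with CTRL in blue and ASO in orange, and black bars for the mean and SD over 5 libraries. In segments inside the last exon the CTRL libraries sit between -0.74 and 0.35 and the ASO libraries at or below -1.58, and on earlier exons between -1.18 and -0.13 and at or below -2.12, while outside the exons of the distal transcript the ranges, -0.86 to -0.15 and -1.40 to -0.82, overlap.

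The question was whether the share of a gene's counts on its far upstream segments differed between ASO and CTRL muscle. All 2872 pairs of an upstream and a distal segment were tested for a segment-by-group difference with edgeR's quasi-likelihood test and Benjamini-Hochberg adjustment over all pairs. The ratio was lower in ASO for 1242 of 1828 members (67.9%) and higher for 31 (1.70%), and 555 did not pass. Over all pairs, of which the members are the larger part, 61.6% were called lower and 2.37% higher, and over the pairs nearer than 1000 bp 50.4% and 3.54%. With edgeR's diffSpliceDGE, which sets a segment against the other segments of its gene, 795 members were lower and 15 higher, and the median log2 difference was -0.85. The median log2 difference in the ratio itself, ASO minus CTRL, was -1.45 over the members, with quartiles of -2.37 and -0.61, and -0.80 over the 1044 nearer pairs, of which 526 were lower and 37 higher. The 5 ASO libraries all lay below the 5 CTRL libraries in 909 members, against 45.7% of all pairs, and all above in 19, against 1.67%. Members of a gene share its distal segment and are not independent.

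The minimum of 50 counts was summed over both groups, so a segment could pass on 1 group alone. Fewer than 25 counts stood in the 5 CTRL libraries for 20 members and in the 5 ASO libraries for 338. Among the 904 members with 50 or more counts in each group on each segment, 614 were lower and 18 higher, with a median of -1.21. The gene lists below use the minimum over both groups, and their shares were not worked out with 50 or more counts in each group. At the limit, the 8 members with exactly 50 counts had a median of 35 counts in CTRL and 15 in ASO, and the 12 segments left out with 49 counts had 41.5 and 7.5. The largest gap left out was 998 bp. A total of 120 members share bases with an exon of another gene on the opposite strand and 28 on the same strand, where reads of the 2 genes may be mixed, since the counting options given name no strand setting. Of the 1682 members that are themselves free of other genes' exons, whatever their distal segment overlaps, 1154 were lower and 29 higher.

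The members fall into 4 kinds by their place on the transcript that owns the distal segment. Inside its last exon lay 752, which are upstream stretches of the exon that holds the distal segment, and 530 of them were lower and 11 higher with a median log2 difference of -1.47. Over the start of the last exon, with part of the segment before it, lay 176, of which 113 were lower and 3 higher with a median of -1.40. On an earlier exon lay 644, of which 531 were lower and 4 higher with a median of -1.95. Nearly all of this kind, 622, also hold bases outside the exons, and the median overlap with exons is 98 bases. The other 256 share no base with the exons of the distal transcript, and 68 of these were lower and 13 higher, with a median of -0.35. Hexamers were also spread unevenly, in 29.9% of members inside the last exon, 18.8% of those over its start, 7.14% of those on an earlier exon and 61.3% of those outside.

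On earlier exons the decrease was larger the more exonic bases lay between both segments. The median log2 difference there was -0.79 for 86 members within 500 exonic bases, -1.49 for 116 beyond that and up to 1000, -2.005 for 167 up to 2000, -2.34 for 112 up to 3000 and -2.78 for 163 beyond 3000. The median count of these members over the 10 libraries fell along the same classes, at 433, 308.5, 233, 216 and 148. Farther classes thus stood nearer the minimum of 50, which a segment can pass through CTRL alone. Inside the last exon it was -1.26 up to 2000 bases, -1.56 beyond that and up to 3000, and -1.75 beyond 3000, although the 49 members with gaps over 5000 and up to 10000 bp had -1.31. Over the start of the last exon it was -1.32, -1.16 and -1.48 in the same 3 classes, with no such order. Outside the exons it had none either, at -0.35, -0.28, -0.74, -0.30 and -0.22 from the nearest to the farthest class. Members that carry a hexamer in their last 50 bases had smaller decreases in each kind, with medians of -1.01 against -1.68 without one inside the last exon, -0.71 against -1.49 over its start, -1.47 against -1.96 on an earlier exon and -0.24 against -0.66 outside. These medians are descriptions, since segments of a gene can overlap and share a distal segment. The paper limited its counts to the ends of 3′UTRs because of biases in read coverage. The part of coverage along the transcript, of RNA quality or of the count minimum in these values was not tested.

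**Figure D2:**
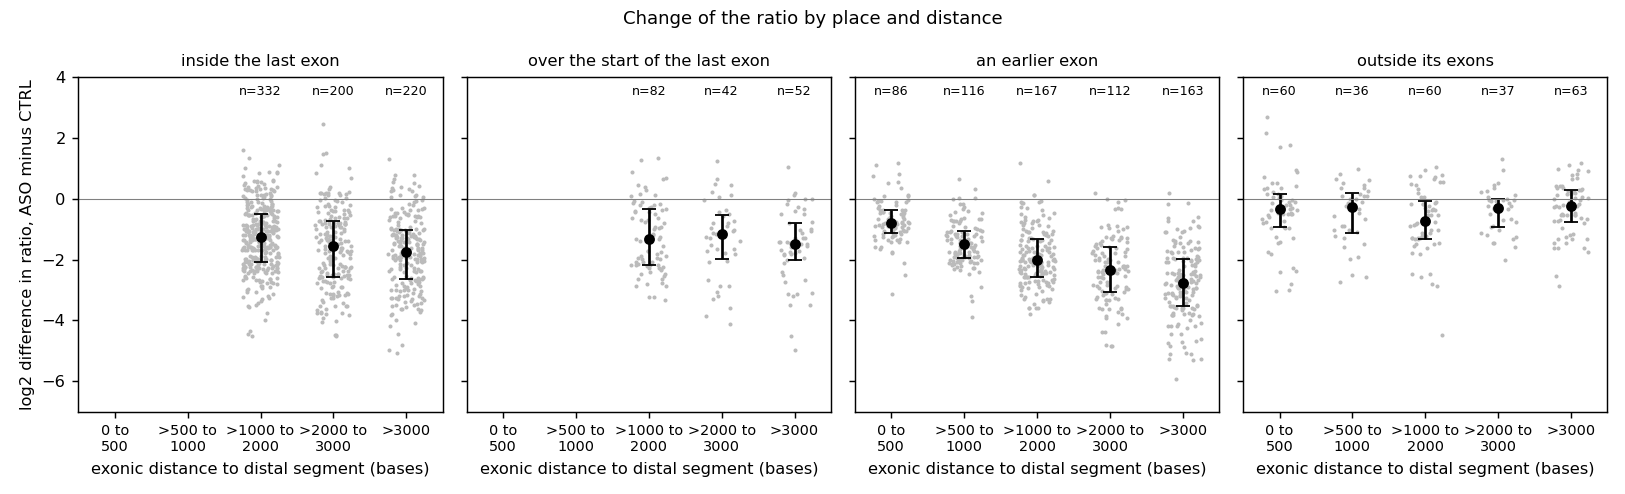
Log2 difference of the upstream-over-distal ratio, ASO minus CTRL (y axis), against the exonic distance to the distal segment in bases (x axis), for the 4 kinds of member; grey points are single members, and black points with bars are the median and quartiles. On an earlier exon the median goes from -0.79 in the nearest class to -2.78 in the farthest, and outside the exons it stays between -0.74 and -0.22.

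Each segment was also tested on its own with edgeR's quasi-likelihood test after TMM scaling, over 10658 segments, of which 24.7% were lower and 15.9% higher in ASO. Of 1438 members tested, 868 were lower and 47 higher, with a median log2 fold change of -1.05. Of 1186 distal segments tested, 44 were lower and 318 higher, with a median of 0.36. The median over all segments was -0.01 with TMM and -0.24 with scaling to total counts, under which 962 members were lower and 19 higher, and 65 distal segments were lower and 143 higher. The 47 higher members became 29 without CTRL replicate 4 and 72 without ASO replicate 2. Outside the exons of the distal transcript, 32 of 180 members tested were lower and 22 higher, with a median of -0.01. Where both segments were tested (1292 members), the upstream segment was lower and the distal one not called in 556, the upstream lower and the distal higher in 230, and the upstream not called and the distal higher in 156. In 35 members both were lower and in 12 both were higher.

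**Figure D3:**
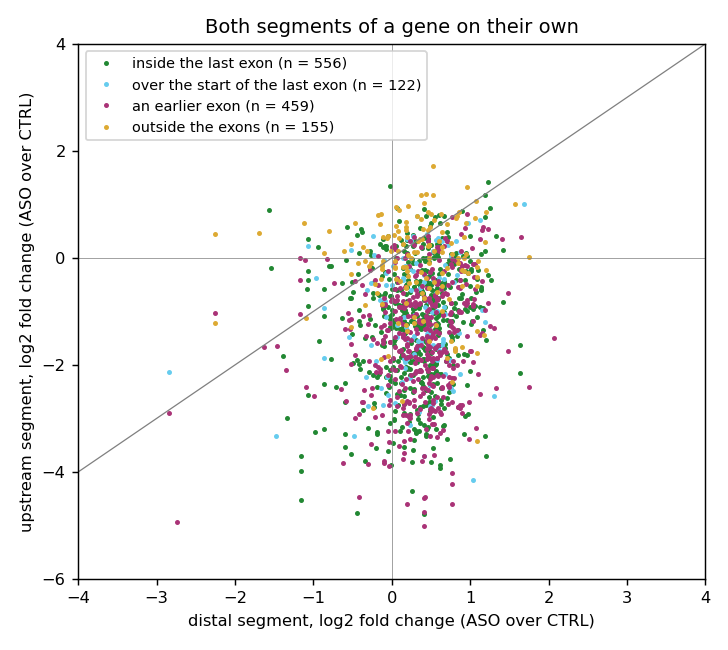
Log2 fold change of the upstream segment (y axis) against that of the distal segment (x axis), ASO over CTRL, for the 1292 members with both tested, colored by the 4 kinds of place, with the line of equal change in grey. Points of the exons of the distal transcript lie mostly below the line, and points outside those exons lie closer to it.

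The clearest pairs in which both segments moved, in opposite directions, were taken by the smallest p of the weaker segment. *Myo18b*, an unconventional myosin of the sarcomere, had 93, 99, 86, 115 and 124 counts on the upstream segment in CTRL and 18, 21, 17, 27 and 27 in ASO, while its distal segment had 331, 481, 204, 279 and 209 in CTRL and 893, 999, 1591, 960 and 1206 in ASO. All ASO libraries were lower upstream and higher at the distal end. The upstream segment, chr5:112965092-112965591 on the minus strand, lies 127850 bp before the distal one but only 3759 exonic bases away. On their own, the segments changed by -2.42 and 1.76 on the log2 scale, and the ratio by -4.17 (SE 0.32), values that the choice by p used. *Abcf1*, an ABC-family factor of translation initiation, had upstream counts of 72 to 134 in CTRL and 14 to 44 in ASO and distal counts of 240 to 439 and 629 to 950. *Bap1*, a nuclear deubiquitinase, had upstream counts of 29 to 63 in CTRL and 3 to 17 in ASO and distal counts of 121 to 202 and 318 to 423. The ratio also fell in *Smg5*, a factor of nonsense-mediated decay (-3.61), in *Tmem127*, a membrane protein that restrains mTOR (-3.81), and in *Tubgcp2*, a subunit of the gamma-tubulin complex (-4.48). Of these 6, *Tmem127* lies in the last exon and *Tubgcp2* outside the exons of the distal transcript.

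The 12 members with the largest decrease of the ratio were taken among those with 100 or more counts on each segment, no overlap between the groups and no exon of another gene, so their values describe them. *Kpna1*, which encodes an importin alpha that carries cargo into the nucleus, led with 47, 53, 66, 119 and 117 upstream counts in CTRL and 3, 4, 3, 3 and 1 in ASO. Its distal counts were 663, 727, 466, 478 and 403 in CTRL and 782, 861, 957, 648 and 788 in ASO, so the groups were far apart upstream and overlapped at the distal end. The ratio was 0.165 ± 0.101 (SD, n = 5) in CTRL and 0.0035 ± 0.0014 in ASO, a log2 difference of -5.30 (SE 0.47). This member reached the count minimum through CTRL, with 402 counts against 14 in ASO. The upstream segment overlaps an exon of the distal transcript by 23 bases and otherwise lies outside its exons.

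*Deptor*, an inhibitor that binds mTOR, had 22, 70, 108, 98 and 144 upstream counts in CTRL and 3, 9, 0, 3 and 3 in ASO. The distal counts of *Deptor* were 243, 366, 361, 185 and 172 in CTRL and 481, 577, 372, 175 and 342 in ASO. Both segments lie in 1 exon with 4569 bp between them, and the ratio went from 0.39 ± 0.299 to 0.00955 ± 0.00702, a log2 difference of -5.06 (SE 0.58). *Gsk3b*, the kinase that phosphorylates glycogen synthase and is held in check by insulin, had 29, 20, 32, 34 and 49 upstream counts in CTRL and 2, 4, 0, 5 and 3 in ASO. Here the distal segment was higher in ASO on its own, with 32, 38, 33, 25 and 19 counts against 63, 81, 99, 56 and 80 (log2 fold change 1.21, adjusted p = 0.000621). The ratio of *Gsk3b* went from 1.27 ± 0.79 to 0.0416 ± 0.0323. *Susd6*, a membrane protein with a sushi domain, had 96, 120, 139, 185 and 265 upstream counts in CTRL and 11, 14, 6, 8 and 6 in ASO, with distal counts of 247 to 367 and 364 to 432. *Sox6*, a transcription factor that represses slow fiber genes in fast muscle, had 61, 85, 103, 136 and 158 upstream counts in CTRL and 6, 10, 12, 5 and 13 in ASO. The distal counts of *Sox6* were 215 to 527 in CTRL and 382 to 675 in ASO, and the log2 difference in the ratio was -4.46 (SE 0.40).

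The other 7 had log2 differences in the ratio between -4.97 and -4.18. *Foxn3*, a forkhead repressor, had 44 to 172 upstream counts in CTRL and 3 to 8 in ASO, and distal counts of 237 to 531 and 786 to 968. *Eprs1*, the tRNA synthetase for glutamate and proline, had 43 to 148 and 3 to 7 upstream. In *Parp1*, which marks DNA breaks with poly(ADP-ribose), the upstream counts were 14 to 39 in CTRL and 1 to 2 in ASO. The upstream counts in ASO were 0 to 3 in *Adgrl4*, an endothelial adhesion receptor, 0 to 5 in *Anp32e*, a chaperone of the histone variant H2A.Z, 0 to 6 in *Tbc1d16*, a Rab GTPase-activating protein, and 1 to 7 in *Trappc10*, a subunit of the TRAPP tethering complex. With so few ASO counts, the size of these differences rests on a handful of reads per library. The *Anp32e* segment has 70 bases that no other segment covers, and its other bases are shared. Of the 12 members, *Deptor*, *Gsk3b*, *Susd6*, *Sox6*, *Anp32e* and *Tbc1d16* lie in the last exon, *Foxn3* over its start and the 5 others on an earlier exon.

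**Figure D4:**
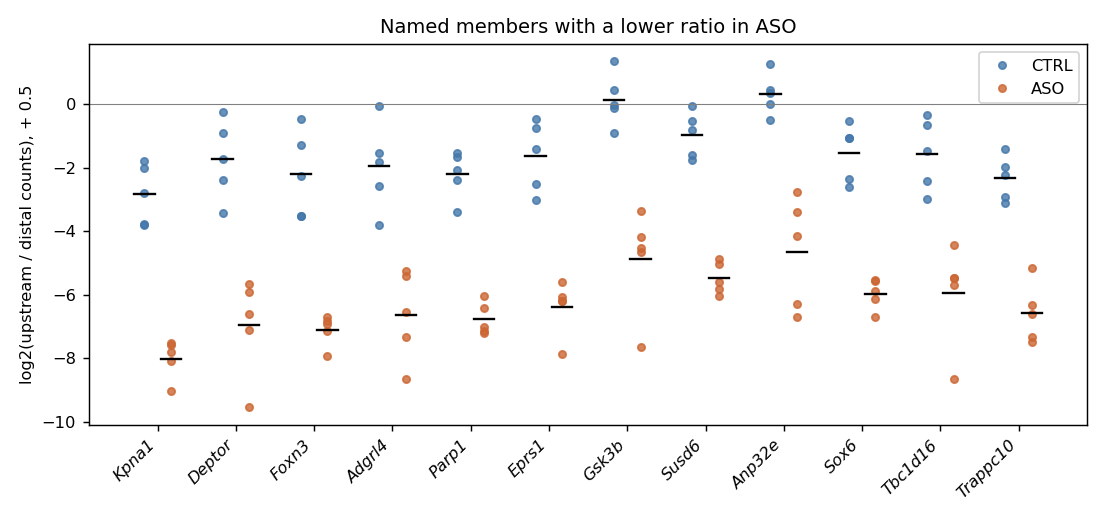
Log2 upstream-over-distal ratio (y axis) in each library for the 12 members with the largest decrease under the limits on counts, overlap and other genes' exons (x axis), CTRL in blue and ASO in orange, with a black line at the mean of 5 libraries. In each gene the 5 ASO libraries lie below the 5 CTRL libraries, which the choice of genes requires.

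The 31 members with a higher ratio in ASO were of another make. In 17 of them the distal segment was lower on its own, in 8 the upstream segment was higher on its own, and their distal segments had a median of 297 counts over the 10 libraries against 479 over all members. By place, 13 lay outside the exons of the distal transcript, 11 inside the last exon, 3 over its start and 4 on an earlier exon. Under the same limits as for the decreases, *Sugp2*, a protein with SURP and G-patch domains, led with 11, 11, 12, 22 and 17 upstream counts in CTRL and 24, 35, 33, 28 and 36 in ASO, and distal counts of 22, 18, 13, 12 and 33 against 7, 10, 5, 6 and 9. The groups of *Sugp2* did not overlap on either segment, and the ratio went from 0.877 ± 0.561 to 4.44 ± 1.31 (log2 difference 2.46, SE 0.42). A member of *Mettl23*, a methyltransferase named here after its values were seen, had a larger difference of 2.70, but its distal segment lies over an exon of another gene on the same strand for 169 bases. In *Metrn*, a secreted neurotrophic factor, the upstream segment held 179 to 227 counts in CTRL and 135 to 238 in ASO and was not called (log2 fold change -0.19), while the distal segment had 20, 32, 29, 33 and 32 against 8, 14, 6, 15 and 14. *Mau2*, a partner of the cohesin loader, and *Spcs2*, a subunit of the signal peptidase, likewise had a lower distal segment, with a log2 fold change of -1.07 each, and an upstream segment that did not pass the test. Only 75 bases of the *Mau2* member are its own, and the others lie under another segment.

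In *Med25*, *Crk*, *Ttll7* and *Dis3* the upstream segment itself passed the test upward, and the distal one did not pass it or was too low to be tested. *Med25*, a subunit of the Mediator complex, had 65, 59, 50, 37 and 45 upstream counts in CTRL and 99, 113, 174, 122 and 138 in ASO, and distal counts of 39 to 76 and 78 to 87. The upstream segment of *Med25*, which ends in the AATAAA shown above and lies outside the exons of the distal transcript, rose by 1.18 on the log2 scale (adjusted p = 0.000296) and the ratio by 0.78 (SE 0.26, adjusted p = 0.0142). Another member of *Med25*, at a gap of 7911 bp, went the other way. It had 539 counts in CTRL and 199 in ASO, and its ratio was called lower, with a log2 difference of -2.03. *Crk*, an SH2 and SH3 adaptor, had 3 to 10 upstream counts in CTRL and 18 to 41 in ASO. *Ttll7*, a tubulin polyglutamylase, had 31 to 97 and 87 to 183, beside distal counts of 400 to 993 and 424 to 965. *Dis3*, the catalytic subunit of the RNA exosome, had 14 to 19 and 24 to 54, on a distal segment of 6 to 21 counts in all libraries. *Stmp1*, which encodes a small mitochondrial peptide, had 360 to 563 upstream counts in CTRL and 581 to 950 in ASO, and a log2 fold change of 0.43 that did not pass (adjusted p = 0.0606).

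For some of these members the call rested on the segment they were set against. In *Ndufb5*, a subunit of respiratory complex I, the upstream segment held 669 to 1364 counts in CTRL and 899 to 1124 in ASO, the distal one 127 to 332 and 59 to 160, and the log2 difference was 1.10 (SE 0.26). With the most counted segment near the end as the distal one it was -0.49, and against the other segments of the gene (edgeR's diffSpliceDGE) -0.28. With diffSpliceDGE the calls of *Sugp2*, *Mau2*, *Metrn*, *Dis3*, *Spcs2*, *St8sia5*, a sialyltransferase, and *Stmp1* were also lost.

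**Figure D5:**
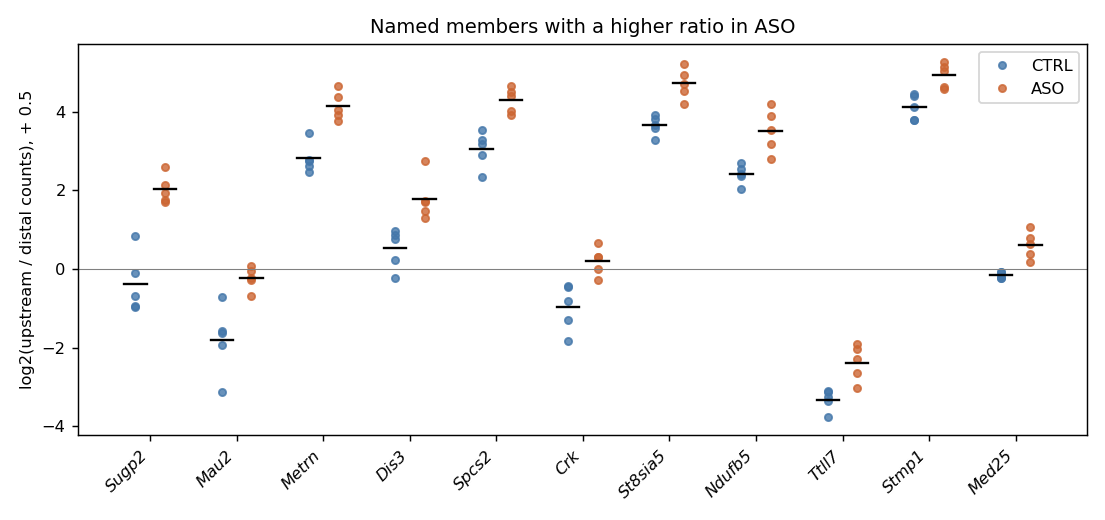
Log2 upstream-over-distal ratio (y axis) in each library for 11 members with a large increase under the limits on counts, overlap and other genes' exons (x axis), CTRL in blue and ASO in orange, with a black line at the mean of 5 libraries. The upstream segment has more counts than the distal one in most of these genes, with mean ratios of 18 in CTRL and 31.9 in ASO for *Stmp1*.

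Among genes of muscle differentiation and membrane, the myogenic regulators had 17 members in 14 genes, of which 15 were lower (88.2%, against 67.9% of all members) and 0 higher, and the median log2 difference in the ratio was -2.38, against -1.45 over all members. Besides *Sox6*, the ratio of *Eya4*, a coactivator of homeodomain factors in muscle, went from 0.617 ± 0.283 to 0.0907 ± 0.0265, and that of *Nfatc3*, a target of calcineurin, from 0.836 ± 0.415 to 0.104 ± 0.0367. Both segments of *Nfatc3* lie over an exon of a gene on the opposite strand. Calcium handling and membrane genes had 22 members, with 13 lower (59.1%), 1 higher and a median of -1.11. *Ano5*, which takes part in membrane repair, had 255, 247, 229, 345 and 421 upstream counts in CTRL and 38, 61, 39, 36 and 41 in ASO on distal segments of 12 to 29 counts in all libraries. *Camk2a*, a calcium- and calmodulin-dependent kinase, had 208 to 502 upstream counts in CTRL and 39 to 113 in ASO, with a distal segment that was higher (log2 fold change 0.96). *Cacnb1*, the beta subunit of the muscle calcium channel, had a ratio of 0.205 ± 0.0797 in CTRL and 0.0334 ± 0.00989 in ASO. The list of sarcomere and contraction genes, on which *Myo18b* does not stand, had 5 members in 3 genes with a median of -0.47, and the 1 that passed was in *Myh9*, a non-muscle myosin (-3.83).

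Insulin, mTOR and growth signaling had 19 members in 12 genes, 16 lower (84.2%, against 67.9% of all members) and 0 higher, with a median of -2.55. In *Prkab2*, the beta subunit of AMPK found in muscle, the upstream segment had 241, 332, 270, 372 and 601 counts in CTRL and 74, 63, 25, 27 and 49 in ASO, and the distal one 959 to 2085 and 1303 to 2872. The ratio of *Prkab2* went from 0.295 ± 0.142 to 0.0202 ± 0.00541 (log2 difference -3.76, SE 0.31, adjusted p = 6.62e-08). Kinases and phosphatases had 37 members, 21 lower (56.8%) and 3 higher. *Hipk3*, a homeodomain-interacting kinase, had 116, 128, 125, 152 and 184 upstream counts in CTRL and 19, 25, 16, 13 and 13 in ASO on a segment of 74 bp with its own AATAAA. The distal counts of *Hipk3* overlapped between the groups, at 476 to 1234 and 942 to 1243. *Mark2*, a microtubule-affinity kinase, had a log2 difference of -2.73.

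Mitochondrial and fuel genes had 17 members, 11 lower (64.7%, against 67.9% of all members) and 1 higher, with a median of -1.24. *Acadm*, the medium-chain acyl-CoA dehydrogenase of fatty acid oxidation, had 1574, 872, 1100, 1109 and 1263 upstream counts in CTRL and 219, 291, 100, 252 and 188 in ASO, and distal counts of 1371 to 3076 and 1146 to 1649. Both segments of *Acadm* were lower on their own, with log2 fold changes of -2.68 upstream and -0.59 at the distal end (adjusted p = 3.36e-05 and 0.0253). *Acsl1*, which activates long-chain fatty acids, had 509 to 1334 upstream counts in CTRL and 91 to 227 in ASO, and *Mcu*, the mitochondrial calcium uniporter, 53 to 84 and 15 to 35. Among ubiquitin and autophagy genes 20 of 26 members were lower (76.9%) and 0 higher, and the ratio went from 1.41 ± 0.752 to 0.108 ± 0.0688 in *Cul3*, a cullin scaffold of ubiquitin ligases, and from 0.457 ± 0.317 to 0.0412 ± 0.0151 in *Ube4a*, a ligase that extends ubiquitin chains. In *Ube2h*, a conjugating enzyme, upstream counts were 11 to 23 in CTRL and 0 to 3 in ASO.

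Transcription and chromatin genes had 44 members in 29 genes, 40 lower (90.9%, against 67.9% of all members) and 0 higher, with a median of -2.04. *Nrip1*, a corepressor of nuclear receptors, had 10, 52, 35, 28 and 37 upstream counts in CTRL and 1, 4, 2, 6 and 4 in ASO, and *Nfic*, a nuclear factor I protein, had 148 to 410 and 20 to 91. Vesicle and cytoskeleton traffic genes had 28 members, 23 lower (82.1%) and 0 higher, among them *Sar1a*, a GTPase of COPII vesicles, with 187 to 271 and 42 to 102 upstream counts, *Dync1li2*, a dynein light intermediate chain (-2.72), and *Rab18*, a small GTPase (-4.17 on distal segments of 2 to 19 counts).

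Among genes that act on RNA, splicing and RNA-binding genes had 39 members, 20 lower (51.3%, against 67.9% of all members) and 0 higher, with a median of -0.94. The cleavage and polyadenylation factors had 11 members in 8 genes, 6 lower (54.5%) and 0 higher, with a median of -0.64. *Fxr1*, an RNA-binding protein of muscle, had 299, 396, 398, 518 and 663 upstream counts in CTRL and 91, 102, 33, 60 and 56 in ASO. *Cpsf7*, a subunit of cleavage factor I, had upstream counts of 15 to 23 and 8 to 12, and *Wdr82*, which binds the initiating polymerase, 13 to 19 and 2 to 11. *Papolg*, a poly(A) polymerase, had 6 to 11 and 0 to 3. The log2 differences in the ratio were -1.76 in *Cpsf7*, -2.30 in *Wdr82* and -2.32 in *Papolg*. *Cnot6*, a deadenylase (-2.58), and *Tial1*, which binds AU-rich elements (-1.60), had lower ratios too, and the *Tial1* segment lies over an exon of a gene on the opposite strand for 287 bases. Of the lists of other cell types, adipocyte markers had 2 members, both lower, endothelial markers 1 that was not called, and the rest none.

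The antisense oligonucleotide is directed at miR-22, and a match to its seed was looked for in the members. The mature sequence, chr11:75463772-75463793 on the plus strand of GRCm38.p6 in RefSeq, has its seed (bases 2 to 8) in capitals, and under it stand 3 members with the matching heptamer GGCAGCT in capitals, on GRCm39. *Esr1* is on the list of reported targets, and *Mark2* and *Mau2* are named above with a ratio that went down and up. The distal segment of *Mau2* holds the heptamer too, and the *Mau2* site shown lies in 2 overlapping members.
mmu-miR-22-3p: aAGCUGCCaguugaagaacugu
Esr1, chr10:4953622-4953648, plus strand: aggaaaattattcagGGCAGCTaattt
Mark2, chr19:7258487-7258513, minus strand: gcaccttccatgctgGGCAGCTccgac
Mau2, chr8:70471629-70471655, minus strand: agagggttccttcctGGCAGCTattta
The heptamer was found on the transcript strand in 3.92% of all segments, in 82 members (4.49%) and in 55 of the 1334 distal segments (4.12%). Of the 82 members, 52 were lower and 2 higher, with a median log2 difference in the ratio of -1.33, beside -1.46 over the 1746 members without it. The member of *Esr1*, the estrogen receptor, had 194 counts in CTRL and 24 in ASO, with a log2 difference of -3.54.

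Genes reported as targets of miR-22 had 11 members in 7 genes, all 11 lower with a median of -1.92, beside 67.9% lower and a median of -1.45 over all members. *Ncoa1*, a steroid receptor coactivator, had 19, 21, 43, 46 and 73 upstream counts in CTRL and 0, 2, 4, 2 and 2 in ASO, and distal counts of 76 to 110 and 98 to 174. Of the distal segment of *Ncoa1*, 219 bases lie over an exon of a gene on the opposite strand. Another *Esr1* member, 3090 bp from the distal segment, had 33, 27, 31, 34 and 64 counts in CTRL and 3, 7, 4, 1 and 5 in ASO. This member, the *Esr1* member above and that of *Ncoa1* reached the count minimum through CTRL, which favors a lower call. *Hdac4*, a class II histone deacetylase that restrains Mef2 factors, had 66, 52, 69, 70 and 91 upstream counts in CTRL and 28, 68, 32, 28 and 31 in ASO, and distal counts of 85 to 168 and 147 to 526. The upstream segment of *Hdac4* had a log2 fold change of -1.10 and its distal segment one of 1.08 (adjusted p = 0.00666 and 0.0076).

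Of the genes that the study followed by name in muscle, 3 had members. *Opa1*, a GTPase of mitochondrial inner membrane fusion, had 2 members that each carry a hexamer. The distal segment they were set against holds no hexamer in its last 50 bases and ends in a run of A in the genome. The nearer one, at a gap of 2508 bp, had 76, 64, 70, 77 and 86 counts in CTRL and 45, 36, 61, 30 and 51 in ASO, and the farther one, at 23980 bp, 112, 95, 83, 90 and 118 and 69, 57, 86, 66 and 51. The groups do not overlap on the first and overlap on the second, and the ratios differed by -1.40 (SE 0.31) and -1.24 (SE 0.27) on the log2 scale. *Foxo3*, a transcription factor of atrophy and autophagy genes, had 19, 11, 15, 31 and 54 upstream counts in CTRL and 2, 6, 2, 2 and 3 in ASO, and 96, 98, 56, 48 and 36 against 110, 133, 155, 165 and 136 at the distal end. On their own, the distal segment of *Foxo3* had a log2 fold change of 0.92 (adjusted p = 0.00459) and the upstream one of -3.29, which reached the count minimum through CTRL, with 130 counts against 15 in ASO. *Ppargc1a*, the coactivator that drives mitochondrial biogenesis, had 17, 18, 15, 25 and 22 upstream counts in CTRL and 4, 3, 4, 7 and 5 in ASO, with overlapping distal counts of 66 to 157 and 91 to 165. The two-sided exact permutation test of each of these 4 ratios gave p = 0.00794, the smallest that 252 labellings allow.

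Genes with several members show how the ratio varied along 1 gene. Of 368 such genes, the nearest and the farthest member share no base in 330, and the farthest had the lower log2 difference in 246. Where both lie on exons of the distal transcript, this was so in 203 of 252, with a median of -0.68 for farthest minus nearest. The minimum of 50 counts over both groups applied here too, and its part in this order was not tested. *Psmd11*, a lid subunit of the proteasome, has 5 members on earlier exons whose log2 differences were -0.10, -0.85, -1.55, -1.77 and -2.36 at gaps of 1107, 2866, 12057, 16325 and 26789 bp. Only 55 bases of the nearest are its own, and the others of it lie under another segment. The nearest had 41, 50, 39, 40 and 44 counts in CTRL and 35, 50, 61, 48 and 37 in ASO, and the farthest 48, 48, 39, 51 and 53 and 14, 21, 2, 8 and 11. CTRL libraries thus held like counts on both, while the ASO libraries were low on the farthest and not on the nearest. The distal segment of *Psmd11* did not pass the test on its own (log2 fold change 0.04).

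*Csnk1a1*, casein kinase 1 alpha, has 5 members, and the 3 in the last exon, of which the first 2 overlap each other, had log2 differences in the ratio of -1.18, -1.68 and -2.24 while the 2 outside the exons had -0.24 and -0.65 and were not called. *Cdc37l1*, an Hsp90 cochaperone, has 5 members outside the exons of the distal transcript with log2 differences of -1.46, -2.46, -2.86, -1.28 and -1.61, all against 1 distal segment that was higher by 1.09 on its own and lies over an exon of another gene for 149 bases.

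The members with the most counts did not move as 1 group. *Art1*, an ADP-ribosyltransferase of the muscle cell surface, had 2740, 2672, 1455, 1937 and 2053 upstream counts in CTRL and 2734, 2806, 3618, 3157 and 3608 in ASO, and the ratio was 111 ± 25.1 and 119 ± 38.6 (log2 difference 0.08, exact permutation p = 0.73). The distal segment of *Art1* had 11 to 36 counts per library, lies over an exon of a gene on the opposite strand for 186 bases and holds no hexamer in its last 50 bases. *Eif4g2*, a translation initiation factor, had 1748 to 2402 and 1771 to 2453 upstream counts on a distal segment of 1 to 15, and its log2 difference of -1.29 passed edgeR's test (adjusted p = 0.0222), while its exact permutation p was 0.0952. *Tuba4a*, an alpha-tubulin, had 2477 to 3883 and 1583 to 3454 upstream counts and distal counts of 19 to 35 and 53 to 77, for a log2 difference of -1.52 (SE 0.28). Its distal segment lies wholly over an exon of a gene on the opposite strand. The most counted member, in *Gm42417*, had 3158 to 7913 counts in CTRL and 1069 to 2741 in ASO, but it shares 284 bases with another gene on the same strand, so these reads cannot be assigned to it with certainty. The distal segment of *Gm42417*, of 500 bases, lies wholly over another gene on the same strand and has 0 bases that no other segment covers. Over the 571 members with more counts than their distal segment, 242 were lower and 20 higher with a median log2 difference of -0.67.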

How the data were processed

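Bulk RNA-seq of GAS was analysed in 10 libraries. The authors deposited counts of read pairs, not normalized, for the terminal 500 bp of each 3′UTR, obtained by fastp trimming, STAR alignment on GRCm39 and featureCounts with a Gencode M25 annotation. The 4 other per-sample columns were not used. Of 52423 segments, 52361 were assigned to genes with GENCODE M39 on GRCm39, and 3295 genes with tied outer ends took the segment with the most counts as distal. Pairs were fitted with edgeR 4.0.16 (R 4.3.3), with terms for library, segment and segment by group, at an adjusted p of 0.05; segments alone were fitted with TMM and filterByExpr. Single ratios with 0.5 added were compared by two-sided exact permutation tests. Members and gene lists were chosen with earlier results of these data known. Named genes are the 12 largest changes each way (100 or more counts per segment, no overlap between groups, no exon of another gene), up to 3 called per list by p, the 5 most counted, genes the study names, up to 6 with opposite changes and the 4 with most members; some items these rules name are not reported here. Alternatives were limma 3.58.1, DESeq2 1.42.0, diffSpliceDGE, other minimums, scalings, overlaps and distal segments, drawn-down counts, a replicate block and leaving out each library. The pair fits with edgeR, limma and DESeq2 and the fits of segments alone with edgeR, limma-voom and DESeq2 were tested on simulated data. The diffSpliceDGE fit and the permutation test were not.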

Additional observations from a re-analysis of the deposited data

Results flagged for a closer look

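Tested were 174 groups of 5 libraries, from the named pairs and from the median log2 ratios of each library. In 7 of them, all of named pairs, the log2 upstream-over-distal ratio of 1 library lay far from the other 4, and chance gives about 1 in 20. In CTRL this was 10.3 in library 3 for *Gm42417*. In ASO these were -3.78 for *Acadm*, -7.88 for *Eprs1*, -6.89 for *Smg5* and -1.66 for the *Psmd11* member at 1107 bp, all in library 3, and 2.74 for *Dis3* and -2.37 for *Hdac4* in library 1.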

How the results depend on the processing

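Main counts were 1242 lower and 31 higher for the members' ratio. They were 795 and 15 with diffSpliceDGE, which sets a segment against the other segments of its gene. Fewer members were tested in 3 other settings, where the share lower was 67.9% in the main fit. With 200 or more counts on each segment, 617 were lower and 16 higher of 797 (77.4% lower). With 50 or more in each group they were 631 and 19 of 904 (69.8% lower). For segments that share no base they were 751 and 15 of 1073 (70.0% lower). With a minimum of 10 counts, 1536 were lower and 48 higher of 3181 (48.3% lower). Leaving out 1 library gave 1160 to 1254 lower and 25 to 36 higher. For members on their own, 868 lower and 47 higher became 19 higher with total counts, 79 with the upper quartile, and 446 and 30 with 10 counts in every library, which tests fewer; leaving out 1 library gave 808 to 916 lower and 29 to 72 higher. For distal segments, 44 lower and 318 higher became 143 higher with total counts and 207 with 10 counts in every library; leaving out 1 library gave 31 to 43 lower and 242 to 366 higher.

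Log2 differences changed sign for *Art1* (-0.076 to 0.22 without 1 library), *Psmd11* at 1107 bp (0.57 with diffSpliceDGE, 0.025 drawn down) and *Ndufb5* (-0.28 with diffSpliceDGE, -0.49 with the other distal segment), and with diffSpliceDGE for *Cdc37l1* (0.17) and *Csnk1a1* (0.53 and 0.20). The cause was not tested. Of the remaining values of named ratios under the alternatives, 1777 kept direction and call and 20 lost the call. Segments on their own were followed only for the genes chosen by clear opposite changes of both segments. Their 223 values kept direction and call, which that choice favors, and the other named segments were not followed.

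Numbers 1 to 5 are shared by the groups, but same-numbered libraries did not deviate together (correlations of -0.40, -0.02, 0.02, 0.04 and 0.13) and no library correlated best with its own number. With the replicate block, 1193 members had a lower and 27 a higher ratio, 830 were lower and 35 higher on their own, and 40 distal segments were lower and 231 higher. At 50 counts over 10 libraries, a member with few ASO counts limits the size of its change. The SEs given with the ratios come from edgeR's quasi-likelihood fit and include the spread between libraries.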
